A study of Mus musculus with 32 samples.

Results

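The genes described here are 37 genes of neutrophil granules and of the phagocyte oxidase, followed through blood cell formation in the bone marrow of young and old mice. They were taken by gene symbol from the table of raw gene counts, and 36 of the 37 have a row among the 24421 genes of that table. The remaining gene, Ly6g, was not analysed here. The genes were grouped by role into 5 early (primary) granule genes, 14 late granule genes, 3 genes of lysozymes and a ficolin, 4 oxidase genes, 6 surface and receptor genes and 5 inhibitors and other genes. The name of the late list is loose: it also holds S100a8, S100a9, Padi4 and Ly6g, whose products are not classed here as granule proteins. All 36 passed the filter on low counts.

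Neutrophils carry ready-made proteins in granules that are filled in a fixed order as the cell matures. Serine proteases and myeloperoxidase are made first, at the promyelocyte step, and go into primary granules, whereas lactoferrin, cathelicidin, lipocalin and gelatinase are made later and go into secondary and tertiary granules. The phagocyte oxidase is a separate machine: a membrane-bound flavocytochrome and cytosolic subunits that come together on activation and turn oxygen into superoxide.

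RNA was sequenced from 8 fractions sorted by flow cytometry from the marrow of female C57BL/6 mice, at 10 weeks (Young) or 20 months (Aged), with 2 libraries per fraction and age and 32 in all. HSCs were sorted as IL-7- Lin- cells positive for Sca-1, c-kit and CD150 and lacking CD34, CD48 and Flt3. The multipotent progenitors (MPPs) were all Lin- Sca-1+ c-kit+ CD34+ and were divided by CD150, CD48 and Flt3: MPP1 had CD150 without CD48, MPP2 had both, MPP3 had CD48 alone, and MPP4 had CD48 with Flt3. GMPs, the progenitors of granulocytes and macrophages, were Sca-1- c-kit+ with CD34 and Fc gamma receptors, MEPs, those of megakaryocytes and erythrocytes, lacked both of these, and CLPs, those of lymphocytes, were IL-7+ with low Sca-1 and c-kit. The lineage cocktail, per the study's methods, included Gr-1, and a biotin-conjugated antibody against CD11b was listed as well. The study states that marrow was pooled and sorted in duplicate, so the errors and p-values given here measure the spread between these samples only, which may be technical.

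Total counts ran from 11237384 to 17723245 per library. Levels are given as CPM, the counts of a gene scaled to the total count of its library, and 3 counts, the most that a count of 0 allows, come to between 0.169 and 0.267 CPM. These floors cover counting error only. Il7r, the receptor gene behind the CLP gate, was at 151 to 185 CPM in CLPs, and it was also at 9.54 and 16.1 CPM in the Young MEP libraries, where B lineage genes summed to 185 and 176 CPM against 1.16 and 0.412 CPM in the Aged MEPs. Over all genes, duplicates differed most in Aged HSCs, Aged CLPs, Aged MPP3 and Young MEPs (chi-square per degree of freedom 18.5, 18, 15.2 and 14.3, and 4.47 to 12.3 in the other groups). On the sum of the early genes, they were furthest apart in Aged MEPs (4.02-fold), Aged MPP1 (1.65-fold) and Aged CLPs (1.42-fold). Because a bulk library averages over its cells, fewer cells of a type and less RNA per cell cannot be told apart in any of the differences below.

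The promoters of 2 early and 2 late genes are shown because the granule genes are known targets of PU.1 and of C/EBP factors, and because these 4 genes carry the contrast described below. The sequences are from RefSeq on GRCm38.p6, and each begins 250 bases before the RefSeq start and ends at the base before the first GENCODE exon inside that window. For Prtn3 the GENCODE gene model starts further upstream, at position 79874476 of chromosome 10, so its window lies inside the gene. Capitals mark the PU.1 core GAGGAA or its reverse complement TTCCTC and the C/EBP core TTGCNNAA or its reverse complement TTNNGCAA, searched on both strands.
Elane, chr10:79886062-79886246, plus strand: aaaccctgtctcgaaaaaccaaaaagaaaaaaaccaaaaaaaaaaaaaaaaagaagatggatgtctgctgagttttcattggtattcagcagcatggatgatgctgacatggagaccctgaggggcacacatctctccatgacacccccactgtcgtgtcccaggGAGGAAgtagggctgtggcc
Prtn3, chr10:79879417-79879613, plus strand: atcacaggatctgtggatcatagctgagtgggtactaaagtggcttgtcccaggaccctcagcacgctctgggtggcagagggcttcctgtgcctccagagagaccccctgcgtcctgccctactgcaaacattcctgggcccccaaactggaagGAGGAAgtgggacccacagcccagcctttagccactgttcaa
Ltf, chr9:111019042-111019270, plus strand: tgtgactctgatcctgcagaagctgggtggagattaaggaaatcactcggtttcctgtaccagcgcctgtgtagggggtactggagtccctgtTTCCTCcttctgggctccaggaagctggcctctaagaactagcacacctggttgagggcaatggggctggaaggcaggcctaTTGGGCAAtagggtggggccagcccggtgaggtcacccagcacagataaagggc
Ngp, chr9:110419558-110419746, plus strand: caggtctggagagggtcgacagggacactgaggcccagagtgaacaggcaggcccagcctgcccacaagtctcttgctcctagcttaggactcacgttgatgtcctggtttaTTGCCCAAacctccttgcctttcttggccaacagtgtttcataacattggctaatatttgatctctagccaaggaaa

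In the full window of 250 bases, the PU.1 core began 85 bases before the start of Elane and 95 before that of Prtn3. The C/EBP core began 75 bases before the start of Ltf and 138 and 11 before that of Ngp. Ltf also had a PU.1 core, which began 157 bases before its start. The Ngp core at 11 bases lies past the end of the printed sequence, inside the GENCODE gene. Of the genes with a promoter in the table, the C/EBP core stood in 0 of 5 early and 7 of 12 late genes, against 9.6% of all 27025 promoters. The PU.1 core stood in 4 of 5 early and 7 of 12 late genes, against 23.1% of all promoters. Ly6g is counted here among the late genes, and Mmp9, Hp, Ncf4 and Serpinb1a have no entry. These are matches of letters in one window and not binding sites. Several of the genes are neighbours on their chromosome: Prtn3 and Elane lie 3.07 kb apart, S100a8 and S100a9 22.6 kb, Lyz2 and Lyz1 5.47 kb, and Camp, Ngp and Ltf follow each other on chromosome 9 with gaps of 570.0 and 596.0 kb.

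The early and late granule genes were highest in different fractions of Young marrow. By mean level, all 5 early genes were highest in GMPs, whereas of the 13 late genes 7 were highest in MPP3, 4 in CLPs, 1 in MPP4 and 1 in GMPs. Among these, S100a8 in MPP3 and Mmp25 in CLPs overlapped the fraction with the second highest mean. Summed over the 5 early genes, Young GMPs had 74900 and 74400 CPM, Young MPP3 3790 and 4040 CPM, and Young HSCs 244 and 262 CPM. Summed over 12 late genes, leaving out Padi4, Young MPP3 had 1340 and 1340 CPM, Young MPP2 827 and 878 CPM, Young GMPs 821 and 801 CPM, and Young CLPs 657 and 665 CPM. The late sum of Young GMPs was therefore below that of MPP3 while their early sum was far above it, and no library of one fraction overlapped the other on either sum. The late sum of Young GMPs was mostly haptoglobin (Hp, 576 and 546 CPM) and S100a8 (169 and 165 CPM).

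**Figure D1:**
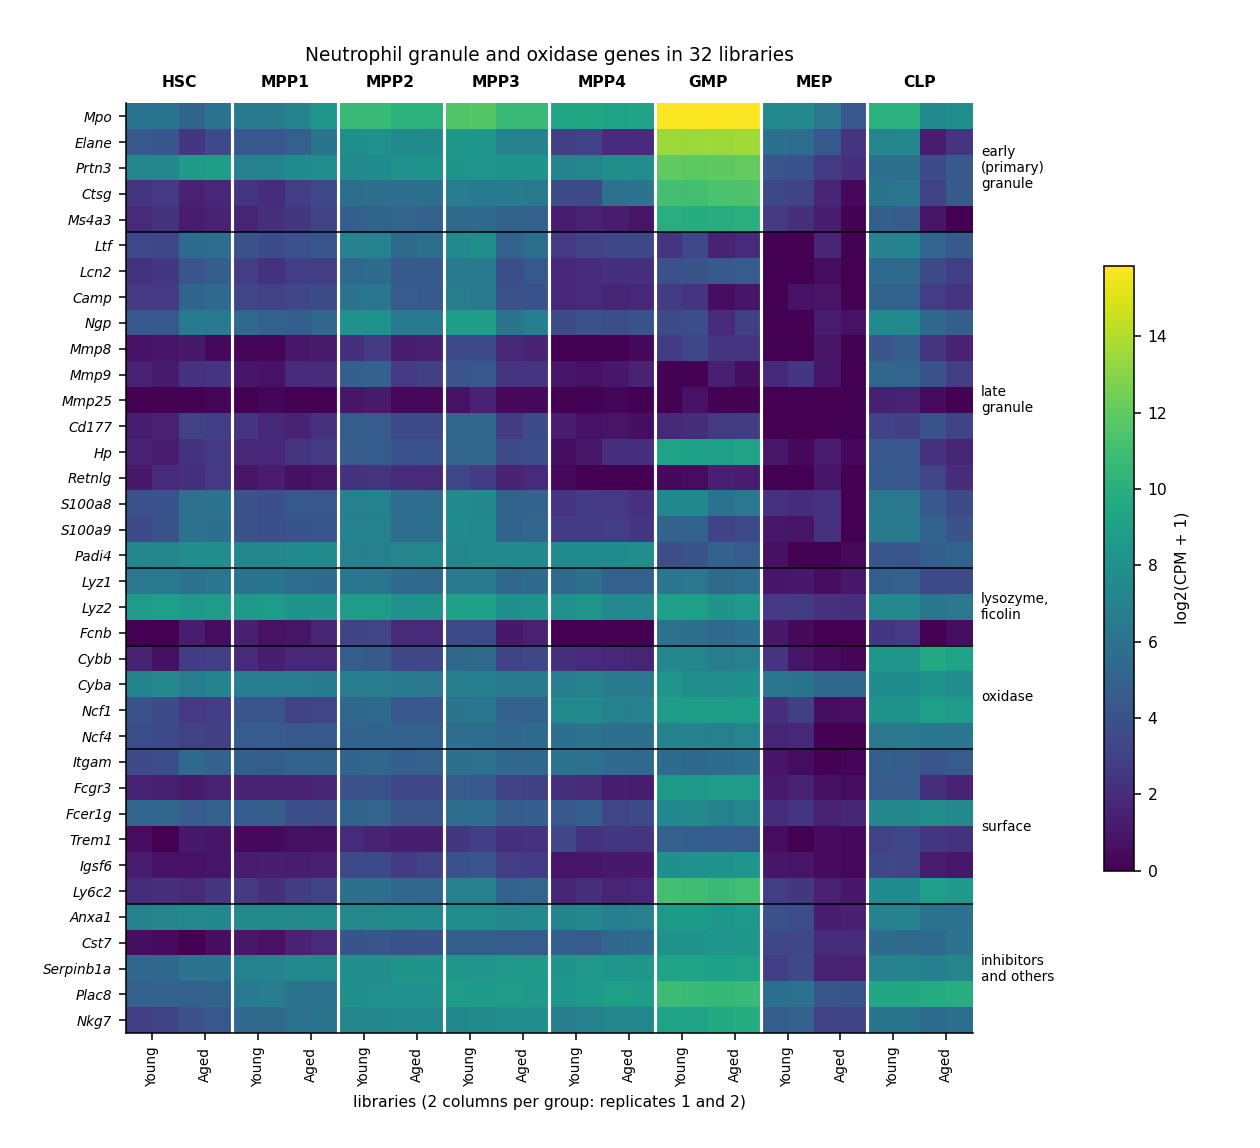
Level of the 36 genes (rows, by role) in the 32 libraries (columns, by fraction and age), as log2(CPM + 1) on the colour scale. Early granule genes are brightest in the 4 GMP libraries, where Mpo reached 55800 to 58700 CPM, and late granule genes are brightest in Young MPP2, MPP3 and CLP.

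Mpo encodes myeloperoxidase, which makes hypochlorous acid in the phagosome. In GMPs it stood at 55800 and 56300 CPM in Young and 58700 and 56500 CPM in Aged libraries, which was 5.58 to 5.87% of all counts there, and the 5 early genes together took 7.44 to 7.79%. Elane (neutrophil elastase) was at 12000 and 11500 CPM in Young GMPs, Prtn3 (proteinase 3) at 3940 and 3650 CPM, Ctsg (cathepsin G) at 2200 and 2110 CPM, and Ms4a3, a membrane protein of early granulocyte progenitors, at 997 and 886 CPM. Per kilobase of transcript the order of the levels in Young GMPs was Mpo 20400, Elane 12000, Prtn3 3700, Ctsg 2150 and Ms4a3 626 CPM per kb. Neighbours in that order were further apart than their duplicates. The lowest Young fraction differed between genes: HSC for Mpo, with 65 and 69.2 CPM, and MPP4 for Elane, with 7.13 and 7.94 CPM.

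From Young HSCs to Young MPP3, 32 of the 36 genes rose and 0 fell, against 17.5% of all 14154 genes tested that rose and 12.8% that fell. Calls throughout use the quasi-likelihood test of edgeR with Benjamini-Hochberg adjustment over all genes tested, at an adjusted p under 0.01. The median log2 difference of the 36 genes was 3.89, beside 0.0 over all genes tested. Ngp, which encodes neutrophilic granule protein, went from 18.3 and 19.7 CPM in Young HSCs to 455 and 472 CPM in Young MPP3 (log2 difference 4.64, SE 0.28, adjusted p = 3.25e-11). Mpo rose by 5.58 on the log2 scale (SE 0.46), Elane by 4.19 (SE 0.43) and Prtn3, which already stood at 152 and 166 CPM in Young HSCs, by 0.94 (SE 0.16). The genes not called were Padi4, Lyz1, Lyz2 and Cyba. The calls of Mmp25, Retnlg and Fcer1g were lost without a library (highest adjusted p 0.0586, 0.0973 and 0.0336), for Retnlg and Fcer1g without any of the 4 and for Mmp25 without either Young HSC library or Young MPP3 replicate 2.

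From Young MPP3 to Young GMPs, the early and late genes parted. All 5 early genes rose (median log2 difference 4.87), while of the 13 late genes 1 rose and 9 fell (median -3.2). Over the 36 genes 21 rose and 9 fell, against 28% and 30% of all genes tested. Elane went from 327 and 339 CPM to 12000 and 11500 CPM (log2 difference 5.53, SE 0.43, adjusted p = 3.17e-10). Ltf, which encodes the iron-binding lactoferrin of secondary granules, went from 192 and 224 CPM to 4.43 and 10.1 CPM (-4.45, SE 0.39, adjusted p = 3.19e-09), and Ngp from 455 and 472 CPM to 12.1 and 13 CPM (-4.82, SE 0.28, adjusted p = 6.04e-12). The one late gene that rose was Hp, which encodes the haemoglobin-binding protein haptoglobin, from 35 and 39.7 to 576 and 546 CPM (4.30, SE 0.19, adjusted p = 3.79e-14). S100a8 and S100a9 encode the subunits of calprotectin and parted here: S100a9 fell from 209 and 194 to 31.4 and 31.8 CPM (-2.28, SE 0.33, adjusted p = 2.78e-06), whereas S100a8 was at 188 and 166 against 169 and 165 CPM (0.30, SE 0.28, adjusted p = 0.351). All 4 oxidase genes, 5 of 6 surface genes and all 5 inhibitors and other genes rose.

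**Figure D2:**
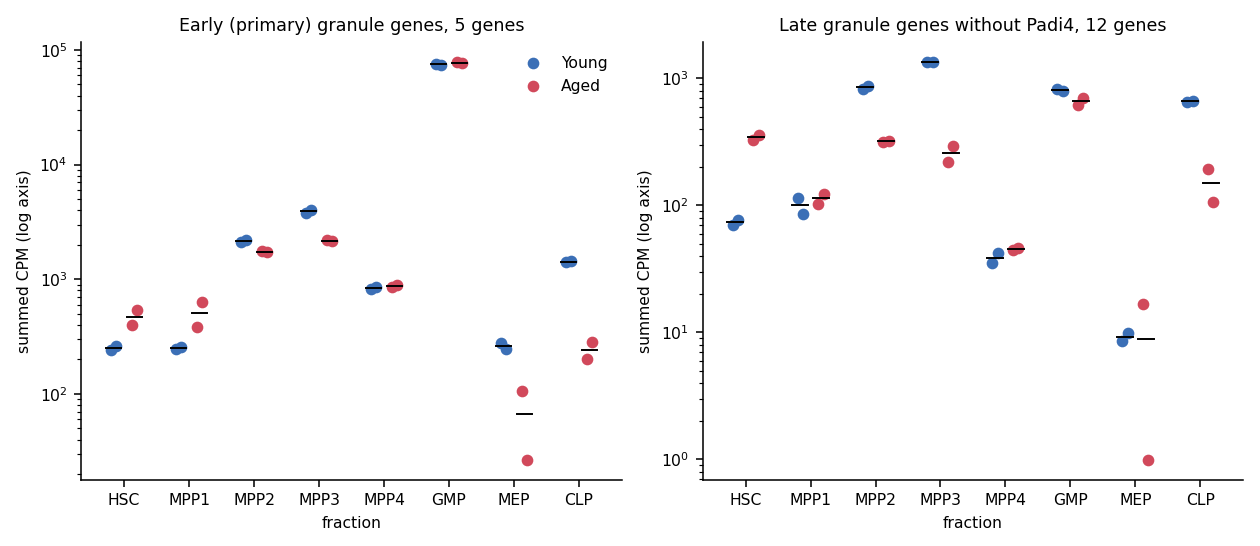
Summed level of the 5 early granule genes and of 12 late granule genes (without Padi4) in each library, in CPM on a log axis, by fraction. Points are libraries and bars are means of 2. The early sum is highest in GMPs of both ages (74400 to 77900 CPM), and the late sum lies between 70.7 and 76.3 CPM in Young HSCs against 330 and 356 CPM in Aged HSCs, with the opposite order in MPP2, MPP3 and CLPs.

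With age, no difference of the early genes was detected in GMPs. None of the 5 passed the test there in either direction, by edgeR or by DESeq2, and 0 had an unadjusted p under 0.05. Their fitted log2 fold changes lay between -0.01 for Mpo and 0.26 for Ctsg (adjusted p = 0.458). Elane stood at 12000 and 11500 CPM in Young and 11900 and 12600 CPM in Aged GMPs, so the ages overlapped. The background in GMPs was 9.93% of all genes tested called higher with age and 8.97% called lower, and of the 36 genes 3 rose and 6 fell.

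In MPP3, none of the 5 early genes passed the test either, by edgeR or by DESeq2, and 2 were lower at an unadjusted p under 0.05. Mpo was at 3030 and 3260 CPM in Young and 1640 and 1610 CPM in Aged libraries (log2 fold change -0.91, SE 0.38, adjusted p = 0.091), and Elane at 327 and 339 against 129 and 128 CPM (-1.33, SE 0.37, adjusted p = 0.0119). The ages did not overlap for either gene, and both genes were called lower when only the 4 MPP3 libraries were fitted (adjusted p = 0.00162 and 8.51e-04). Elane was also called lower with DESeq2 size factors in place of TMM. Prtn3, their neighbour in function and for Elane on the chromosome, was at 293 and 305 against 298 and 290 CPM.

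Prtn3 rose with age in 3 fractions. In HSCs it was at 152 and 166 CPM in Young and 356 and 454 CPM in Aged libraries (log2 fold change 1.40, SE 0.16, adjusted p = 4.66e-06). In MPP1 it was at 126 and 142 against 210 and 221 CPM (0.72, adjusted p = 0.00385), and in MPP4 at 140 and 155 against 222 and 222 CPM (0.68, adjusted p = 0.00307). Aged libraries were the higher ones each time. The call in MPP1 was lost without any 1 of its 4 libraries (highest adjusted p 0.0473), and that in MPP4 without Young replicate 1 or either Aged library (highest 0.0405). Ctsg, a protease of the same granules, rose in MPP4 from 11.7 and 11.6 CPM to 61.8 and 65.5 CPM (2.54, SE 0.28, adjusted p = 1.06e-06), while Elane there was at 7.13 and 7.94 against 2.89 and 2.96 CPM (-1.27, adjusted p = 0.116). In HSCs Elane and Ctsg were not called, at 19.6 and 17.8 against 4.83 and 10.7 CPM and at 4.18 and 5.06 against 1.78 and 2.48 CPM. Prtn3 overlaps the protein-coding gene Plppr3 on the other strand. Use of strand in counting was not stated, so reads of this pair cannot be told apart.

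In CLPs, where 4.73% of all genes tested fell, all 5 early genes fell (median log2 fold change -2.41 beside 0.0 over all genes tested). Mpo went from 1120 and 1130 CPM to 180 and 241 CPM (-2.41, SE 0.40, adjusted p = 2.06e-04), and Elane from 146 and 158 CPM to 1.36 and 4.43 CPM (-5.70, SE 0.51, adjusted p = 8.37e-08). Ms4a3 went from 26.8 and 22.9 CPM to 0.856 and 0 CPM. The Young and Aged CLP libraries did not overlap for any of the 5. In the same libraries 8 of 8 tested basophil, mast cell and eosinophil markers fell, from sums of 2240 and 2250 CPM to 305 and 115 CPM, with Prss34 at 0 counts in both Aged libraries, and macrophage markers fell in 8 of 9, from 198 and 210 to 22.8 and 29.7 CPM, with Cd5l at 0 counts in both Aged libraries. Their part in the fall of the early genes was not tested.

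All 5 early genes fell in MEPs as well, from low levels, where 11.7% of all genes tested fell. Of the 5, 1, Prtn3, was called when only the 4 MEP libraries were fitted (adjusted p from 0.0301 to 0.155 for the others). Mpo went from 189 and 171 CPM to 78.3 and 18.7 CPM (-1.89, SE 0.41, adjusted p = 0.00117), and Elane from 55.7 and 50.7 to 19.3 and 4.21 CPM (-2.19, adjusted p = 5.02e-04). The Aged MEP duplicates differed from each other, with an early sum of 107 CPM in replicate 1 and 26.6 CPM in replicate 2. The call of Mpo was lost without Aged replicate 2 (adjusted p = 0.0109), and that of Ms4a3 without Young replicate 1 or Aged replicate 2 (highest 0.0421). In MPP1, the early genes other than Prtn3 were at a higher mean in Aged libraries and were not called. All 5 early genes were higher there at an unadjusted p under 0.05 by edgeR (median log2 fold change 1.33). Aged replicate 2 of MPP1 stood apart: Mpo was at 95.8 and 88.6 CPM in Young, 137 CPM in Aged replicate 1 and 328 CPM in Aged replicate 2 (adjusted p = 0.0233).

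The late granule genes moved with age in opposite directions in HSCs and MPP3. In HSCs 8 of the 13 rose and 0 fell (median log2 fold change 2.11, beside 0.02 over all genes tested). In MPP3 10 fell and 0 rose (median -2.27, beside -0.04). Over the 36 genes, 14 rose and 2 fell in HSCs, where the background was 3.74% higher and 1.66% lower, and 0 rose and 20 fell in MPP3, where it was 8.14% higher and 5.79% lower. The 8 late genes that rose in HSCs, Ltf, Lcn2, Camp, Ngp, Cd177, Hp, S100a8 and S100a9, all fell in MPP3.

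Ngp rose in HSCs from 18.3 and 19.7 CPM to 94.9 and 96.5 CPM (fitted log2 fold change 2.38 with SE 0.26, adjusted p = 4.18e-06) and fell in MPP3 from 455 and 472 CPM to 66.6 and 108 CPM (-2.36, SE 0.24, adjusted p = 1.27e-06). The Aged HSC libraries thus came to lie in the range of the Aged MPP3 libraries, while the Young libraries of the fractions were far apart. Ltf rose in HSCs from 10.3 and 9.49 to 45.1 and 49.8 CPM (2.31, SE 0.38, adjusted p = 3.83e-04) and fell in MPP3 from 192 and 224 to 30.7 and 50.9 CPM (-2.31, SE 0.34, adjusted p = 5.76e-05). Camp, which encodes the antimicrobial peptide cathelicidin, rose from 5.07 and 5.06 to 33.4 and 41.3 CPM in HSCs (2.93, SE 0.33, adjusted p = 2.93e-06) and fell from 99.9 and 83.7 to 14.5 and 14.8 CPM in MPP3 (-2.60, SE 0.29, adjusted p = 2.51e-06). In neither fraction did the ages overlap for any of these 3 genes.

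Of the other 10 late genes, 5 rose in HSCs and 7 fell in MPP3. Lcn2, which encodes a lipocalin that binds bacterial siderophores, rose in HSCs from 4 and 4.99 to 16.9 and 26 CPM and fell in MPP3 from 82.7 and 82.9 to 13.5 and 19.8 CPM. S100a8 went from 15 and 15 to 61.3 and 63.4 CPM in HSCs and from 188 and 166 to 33.3 and 32 CPM in MPP3. Cd177, a surface glycoprotein of neutrophils, went from 1.51 and 1.76 to 7.29 and 6.6 CPM in HSCs and from 37.1 and 35.9 to 6 and 11.1 CPM in MPP3. Aged libraries were the higher ones in HSCs and the lower ones in MPP3 for each of these 3. The matrix metalloproteinase genes Mmp8 and Mmp9, for collagenase and gelatinase, fell in MPP3, Mmp9 from 17 and 19.9 to 4.41 and 4.5 CPM, and were not called in HSCs, and Mmp25, Retnlg and Padi4 were called in neither. Of the late genes in HSCs, the calls of Cd177 and Hp were lost without either Young library and that of Hp also without Aged replicate 2 (highest adjusted p 0.0266 and 0.0712), and that of Ltf without Young replicate 2 (0.0123). In MPP3 that of Mmp8 was lost without any 1 library (0.0483) and that of Mmp9 without Young replicate 2 or either Aged library (0.0247).

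Padi4, the peptidylarginine deiminase that citrullinates histones, did not share the pattern of the late list. It stood at 123 to 230 CPM in every HSC and MPP library, was not called with age in any of those 5 fractions, and was at 0 to 0.612 CPM in MEPs. It rose in GMPs from 12.2 and 15.9 to 30.5 and 23.6 CPM (fitted log2 fold change 0.89 with SE 0.18, adjusted p = 7.38e-04) and in CLPs from 17.6 and 17.4 to 25.3 and 33.7 CPM (0.77, SE 0.18, adjusted p = 0.0044). The call in GMPs was lost without Young or Aged replicate 1 (highest adjusted p 0.0272), and that in CLPs without either Young library or Aged replicate 2 (0.061).

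The age difference itself was compared between HSCs and MPP3, a contrast added after the values had been seen. As a signed log2 value it was higher in HSCs than in MPP3 for 17 of the 36 genes and lower for 0. The shares over all genes tested were 1.45% and 0.671%, and 9 of the 17 were late genes (median log2 difference 4.49, beside 0.05). A higher signed value can come from a smaller fall in HSCs and need not be a larger change. Camp differed by 5.53 (adjusted p = 6.34e-08), Ngp by 4.74 (6.34e-08) and Ltf by 4.62 (1.24e-05). Markers of other cells were read in the same libraries. In MPP3 the erythroid sum fell from 2190 and 2040 CPM to 463 and 415 CPM (6 of 10 tested markers lower) and the macrophage sum from 179 and 193 to 66.3 and 70.6 CPM (6 of 9 lower), with no marker of these lists at 0 counts in both libraries of an age. In HSCs the erythroid sum was at 1390 and 1520 against 1280 and 1660 CPM with 0 of 10 called, and the macrophage sum at 110 and 121 against 73.1 and 75 CPM with 1 of 9 lower and Marco at 0 counts at both ages. The sum of basophil, mast cell and eosinophil markers went from 2.13 and 1.41 to 11.5 and 19.2 CPM in HSCs (4 of 8 tested higher). In MPP3 it went from 382 and 378 to 277 and 286 CPM (1 higher and 4 lower). Different markers moved: Mcpt8, Cpa3 and Fcer1a were higher in both Aged libraries of both fractions. Prss34 was higher in Aged HSCs and went from 35.6 and 37.5 to 0.69 and 1.28 CPM in MPP3. Prg2 went from 96.4 and 89.9 to 0.276 and 0.225 CPM in MPP3 and was below 0.5 CPM in HSCs. The monocyte sum went from 15.3 and 17.1 to 37 and 36 CPM in HSCs (1 of 5 higher) and from 149 and 151 to 57.2 and 57.9 CPM in MPP3 (2 lower). Neutrophil markers outside the 37 genes, a list of 9 with Csf3r as its main part, rose in HSCs for 2 of 7 tested (sums 77.7 and 65.4 against 143 and 167 CPM) and were called for 0 of 7 in MPP3 (262 and 293 against 293 and 324 CPM), with Stfa2l1 and BC100530 at 0 counts throughout. In the difference between the age differences, the neutrophil markers Csf3r, Slpi and Wfdc21 (3 of 7) were also called higher in HSCs than in MPP3. So were the basophil and mast cell markers Mcpt8 and Prss34 (2 of 8) and the monocyte marker F13a1 (1 of 5). The part of these markers in the late gene differences was not tested.

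**Figure D3:**
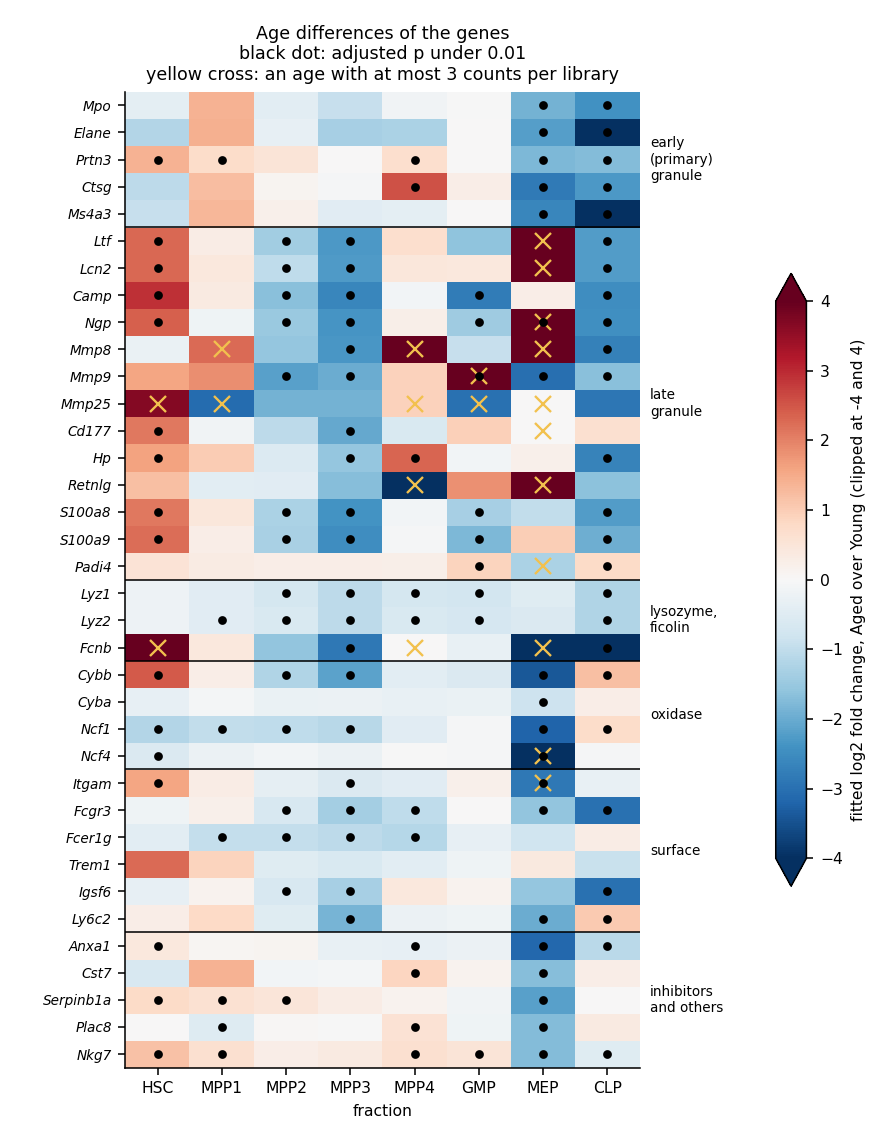
Fitted log2 fold change of Aged over Young (colour, clipped at -4 and 4) for the 36 genes (rows, by role) in the 8 fractions (columns). Dots mark an adjusted p under 0.01, and crosses mark the cells in which both libraries of an age had at most 3 counts, where the fitted value is no measure of size. The late genes are red in HSCs, with 8 dots, and blue in MPP3, with 10 dots, while the early genes carry dots for all 5 only in MEPs and CLPs.

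In MPP2 and CLPs the late genes were lower with age too. In MPP2 7 of the 13 fell and 0 rose (median log2 fold change -1.31), and over the 36 genes 1 rose and 14 fell, against 4.49% and 3.31% of all genes tested. By DESeq2, Ltf, S100a8 and S100a9 were not called in MPP2 (adjusted p = 0.0397, 0.0658 and 0.0765). Ngp went from 263 and 276 to 91.2 and 93.1 CPM there (-1.50, adjusted p = 2.70e-04), and S100a9 from 127 and 135 to 49.6 and 51.9 CPM (-1.31, adjusted p = 0.00733). These calls stood near the threshold: without Young replicate 1 or 2 of MPP2, or Aged replicate 1 or 2, the 7 calls became 3, 2, 2 and 1, although the summed level was at 827 and 878 CPM in Young against 316 and 323 CPM in Aged libraries. The erythroid sum fell beside it, from 1840 and 2000 to 461 and 443 CPM (6 of 10 lower), and the macrophage sum from 211 and 224 to 70.9 and 77.3 CPM (5 of 9 lower). The basophil, mast cell and eosinophil sum went from 153 and 159 to 111 and 113 CPM (1 of 8 higher and 3 lower), and the megakaryocyte sum from 346 and 355 to 309 and 300 CPM (3 of 5 lower). The part of these markers was not tested.

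In CLPs 9 of the 13 late genes fell and 1, Padi4, rose (median -2.23), and over the 36 genes 4 rose and 21 fell, against 5.71% and 4.73% of all genes tested. Ltf went from 128 and 132 to 34.3 and 20.4 CPM (-2.22, adjusted p = 1.25e-04) and Ngp from 183 and 185 to 40.3 and 26.3 CPM (-2.44, adjusted p = 9.74e-07). Both Aged libraries lay below both Young ones. Retnlg, a resistin-like secreted protein, was highest in Young CLPs at 19.8 and 18.4 CPM, stood at 8.85 and 3.08 CPM in Aged CLPs and was not called (adjusted p = 0.0337). The calls of Mmp8 and Mmp9 were lost without Aged CLP replicate 2 and without Young replicate 2, that of Mmp9 also without Young replicate 1 (highest adjusted p 0.0173 and 0.0809). When only the 4 CLP libraries were fitted, 2 late and 2 early genes were called lower.

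In GMPs, where Hp and S100a8 made up most of the late sum, 4 of the 13 fell and 2 rose, against 8.97% and 9.93% of all genes tested. Camp went from 5.81 and 4.46 to 0.532 and 0.968 CPM (log2 fold change -2.81, SE 0.49, adjusted p = 1.72e-04), S100a8 from 169 and 165 to 60.5 and 78.1 CPM (-1.32, SE 0.29, adjusted p = 0.00152) and S100a9 from 31.4 and 31.8 to 8.05 and 10.9 CPM (-1.79, adjusted p = 8.65e-04). Young libraries were the higher ones for all 3. By DESeq2, S100a8 was not called in GMPs (adjusted p = 0.0363). Lcn2 was at 14.5 and 16.5 CPM in Young and 20.1 and 22.6 CPM in Aged GMPs and was not called (0.41, adjusted p = 0.255), and Hp was at 576 and 546 against 515 and 565 CPM. Mmp9 had 0 counts in both Young GMP libraries and 1.6 and 0.521 CPM in the Aged ones, at least 6.19-fold higher by a floor of 3 counts per library. Without Aged GMP replicate 1, the calls of S100a8, S100a9, Ngp, Mmp9 and Padi4 were lost (adjusted p up to 0.0376, 0.0229, 0.0791, 0.0432 and 0.0272), those of Ngp and Mmp9 also without either Young library, and 1 of the 4 falls remained. The erythroid sum was at 1260 and 1100 CPM in Young and 127 and 47.8 CPM in Aged GMPs (5 of 10 tested markers lower). The macrophage sum was at 128 and 142 against 94.8 and 124 CPM (4 of 9 lower), and the monocyte sum at 2200 and 2410 against 1550 and 1640 CPM (1 of 5 lower). The basophil, mast cell and eosinophil sum went from 1860 and 1800 to 2870 and 4010 CPM (1 of 8 higher and 2 lower). The part of these markers was not tested.

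In MEPs the late genes were near the floor. Their sum was 8.5 and 9.9 CPM in Young libraries and 16.6 and 0.989 CPM in Aged replicates 1 and 2, so Aged MEPs spanned the Young values. Ngp had 0 counts in both Young MEP libraries and 1.33 and 0.742 CPM in the Aged ones, at least 5.33-fold higher, a call that was lost without any 1 of the 4 libraries (highest adjusted p 0.0602). Over the 36 genes 1 rose and 18 fell in MEPs, against 9.08% and 11.7% of all genes tested. In MPP1, 3 of the 36 rose and 4 fell, against 4.71% and 2.09%, with 0 of 13 late genes called in either direction by edgeR (4 higher at an unadjusted p under 0.05 and 3 higher by DESeq2). In MPP4, 6 rose and 5 fell, against 10.3% and 6.27%, with Hp the 1 late gene called, from 0.528 and 1.04 to 3.63 and 3.68 CPM (2.33, adjusted p = 2.30e-04), a call lost without Young replicate 1 (0.0115).

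Outside GMPs and MEPs, some late genes varied less against Ltf than Ltf did between libraries. Over the 24 libraries of HSCs, MPPs and CLPs, Ngp was 1.18 to 2.64 times Ltf (median 1.99), Lcn2 0.322 to 0.526 times (median 0.38) and S100a8 0.374 to 1.59 times (median 0.94), while Ltf itself ran from 5.28 to 224 CPM. Camp was 0.183 to 0.829 times Ltf and Mmp9, the most variable of 6 such ratios to Ltf, 0.0548 to 0.448 times. These are ratios of CPM, not of molecules per length. In the 3 GMP libraries with enough counts of Ltf for a ratio, S100a8 was 16.3 to 38.1 times Ltf and Lcn2 1.63 to 7.77 times. Aged GMP replicate 1 had too few counts of Ltf and is plotted, but its ratios are not in these ranges. S100a8 was 0.642 to 1.35 times S100a9 in the 24 libraries and 5.17 to 7.51 times in the 4 GMP libraries. Of the early genes a ratio was taken for one pair, and Elane was 0.00497 to 0.302 times Mpo over the 32 libraries.

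**Figure D4:**
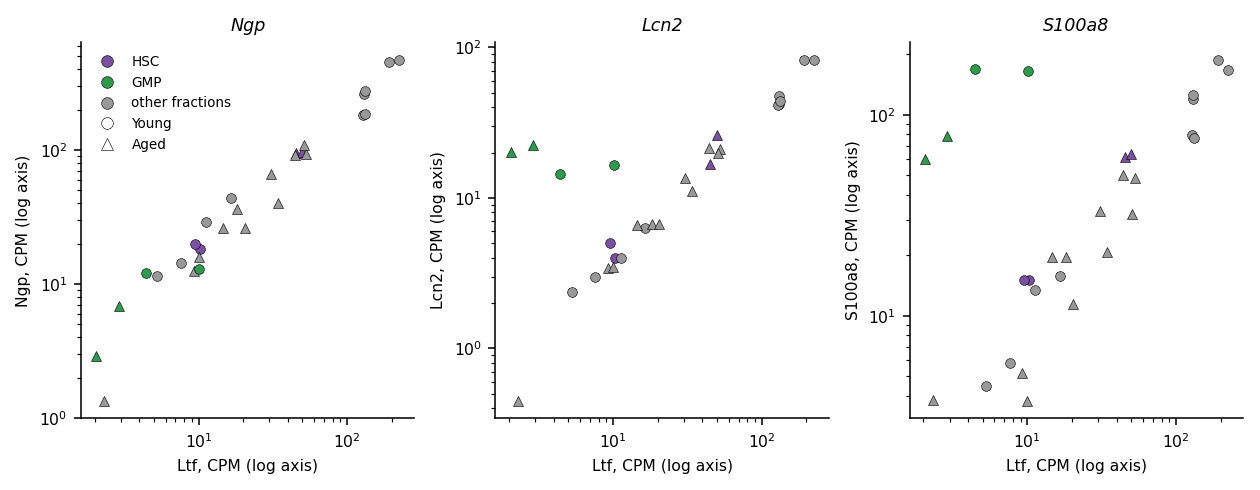
Level of Ngp, Lcn2 and S100a8 (y axes) against Ltf (x axis) in each library, in CPM on log axes. Circles are Young, triangles Aged, GMPs are green, HSCs purple and other fractions grey, and libraries at 0 counts are not shown. Libraries of HSCs, MPPs and CLPs fall along a diagonal band for each gene, and GMP libraries lie above that band for Lcn2 and S100a8.

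The lysozyme genes fell with age in most fractions and by similar steps. Lyz2, the lysozyme of myeloid cells, was not called in HSCs, at 438 and 494 CPM in Young and 377 and 411 CPM in Aged libraries, nor in MEPs, and it fell in the other 6 fractions. In MPP3 it went from 546 and 536 to 242 and 267 CPM (log2 fold change -1.04, SE 0.10, adjusted p = 4.96e-07), in GMPs from 488 and 518 to 291 and 365 CPM (-0.67, adjusted p = 4.28e-05) and in CLPs from 173 and 175 to 72.8 and 77.8 CPM (-1.19, adjusted p = 6.85e-08). The ages did not overlap in these 3 fractions. Lyz1 is a near-identical copy of Lyz2, and Lyz2 was 5.56 to 7.23 times Lyz1 in the 28 libraries outside MEPs, so reads may have been shared between them. Neither gene was called between Young HSCs and MPP3 or between Young MPP3 and GMPs. The calls of Lyz2 in MPP1, without any 1 library, of Lyz1 in MPP2, without Aged replicate 2, and of Lyz1 in MPP4, without Young replicate 2, were lost (highest adjusted p 0.0821, 0.0158 and 0.0134). Fcnb, which encodes ficolin B, a lectin of granulocytes, fell in MPP3 from 10.2 and 11 to 1.1 and 1.73 CPM (-2.86, adjusted p = 2.64e-04) and in CLPs from 4.96 and 5.09 to 0 and 0.501 CPM, and was at 60 and 56.4 against 42.7 and 55.3 CPM in GMPs, where it was not called.

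The oxidase genes called with age differed between fractions: 1 rose and 2 fell in HSCs, 1 fell in MPP1, 2 fell in MPP2 and in MPP3, 2 rose in CLPs and all 4 fell in MEPs. Of all genes tested, 3.74% rose and 1.66% fell in HSCs, and 5.71% rose in CLPs. The shares that fell in MPP1, MPP2, MPP3 and MEPs were 2.09%, 3.31%, 5.79% and 11.7%. Cybb encodes gp91phox, the catalytic subunit of the flavocytochrome. It rose in HSCs from 1.87 and 0.633 to 5.76 and 6.88 CPM (log2 fold change 2.46, SE 0.48, adjusted p = 0.00156), fell in MPP3 from 38.6 and 43.8 to 8.41 and 9.75 CPM (-2.14, SE 0.28, adjusted p = 1.31e-05) and rose in CLPs from 314 and 306 to 830 and 581 CPM (1.21, SE 0.23, adjusted p = 6.92e-04). Its highest level in either age was in CLPs, above that of Young GMPs at 161 and 150 CPM. The call in HSCs was lost without replicate 2 of either age (highest adjusted p 0.0575), and that in CLPs without either Young library or Aged replicate 1 (0.0324).

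Cyba encodes p22phox, the partner of gp91phox in the membrane, and was the most even of the 4, at 68.7 to 301 CPM in every library but the Aged MEPs. It was called in 1 fraction, MEPs, where it fell from 73.5 and 68.7 to 39.5 and 40.3 CPM (-0.83, adjusted p = 2.17e-04). Ncf1 encodes p47phox, the cytosolic organizer. It fell in HSCs, MPP1, MPP2 and MPP3, in MPP3 from 67.2 and 72.5 to 30.5 and 32 CPM (-1.11, SE 0.14, adjusted p = 6.96e-06), and rose in CLPs from 274 and 286 to 483 and 440 CPM (0.74, SE 0.13, adjusted p = 2.57e-04). In GMPs it was at 437 and 470 against 444 and 462 CPM. Ncf4 encodes p40phox and fell in HSCs from 12.7 and 10.7 to 7.88 and 7.15 CPM (-0.59, adjusted p = 0.00581), a call lost without any 1 library (highest adjusted p 0.0778). In MEPs it went from 2.08 and 2.41 CPM to 0 counts in both Aged libraries, at least 8.72-fold lower by the floor.

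In Aged HSCs, then, Cybb was higher while Ncf1 and Ncf4 were lower, and in CLPs Cybb and Ncf1 were higher while the granule genes of both groups were lower. When only the 4 HSC libraries were fitted, none of Cybb, Ncf1 and Ncf4 was called (adjusted p = 0.0309, 0.034 and 0.183). The 4 oxidase genes summed to 871 and 878 CPM in Young and 1660 and 1310 CPM in Aged CLPs. When only the 4 CLP libraries were fitted, neither Cybb nor Ncf1 was called (adjusted p = 0.0261 and 0.0161). In the same libraries the B lineage sum fell from 2490 and 2540 to 1170 and 1220 CPM (6 of 8 markers lower), and the megakaryocyte sum rose from 37.7 and 35.9 to 102 and 160 CPM (4 of 5 higher), beside the falls of basophil and macrophage markers given above. The monocyte sum went from 175 and 176 to 224 and 194 CPM (1 of 5 higher and 2 lower). The part of all these markers in the rise of the oxidase genes was not tested. All 4 fell in MEPs (median -3.3), the call of Cybb being lost without Young replicate 1 or either Aged library (highest adjusted p 0.116), and B lineage markers fell as well, 7 of 8 tested, with 6 of the 8 at 0 counts in both Aged libraries. Their part in the fall of the oxidase genes was not tested. Ncf1 overlaps Gtf2ird2 on the other strand and Cyba overlaps Gm20388, and use of strand in counting was not stated, so reads of the pairs cannot be told apart.

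**Figure D5:**
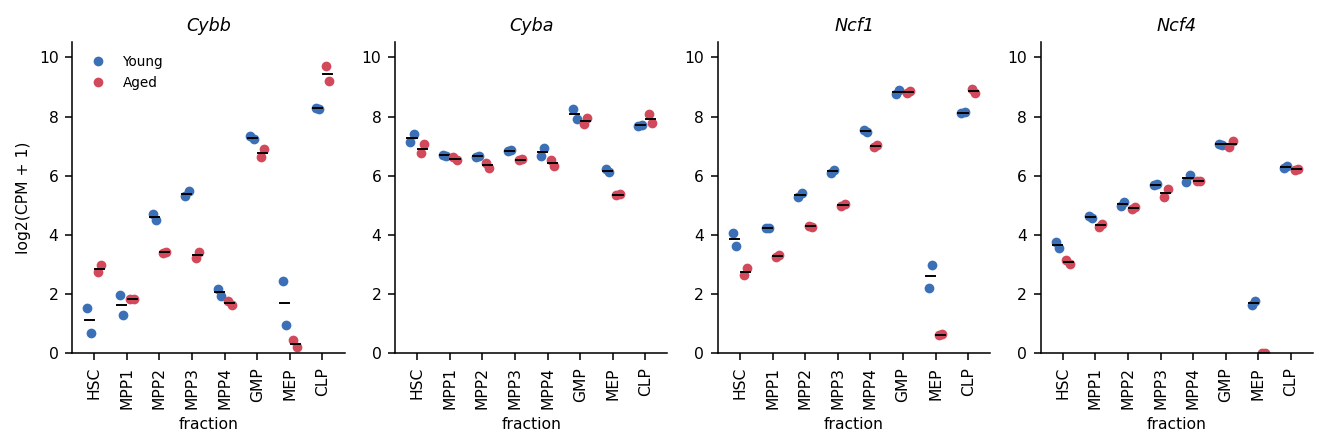
Level of the oxidase genes Cybb, Cyba, Ncf1 and Ncf4 as log2(CPM + 1) (y axis) by fraction (x axis), with points for the Young and Aged libraries. Cybb is highest in CLPs of both ages (306 to 830 CPM), where the Aged libraries lie above the Young ones, and Ncf4 lies at 0 in the Aged MEPs.

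Among the surface and receptor genes, 5 of 6 fell in MPP3, where 5.79% of all genes tested fell. Fcgr3, a low-affinity Fc gamma receptor gene recognized by the antibody of the GMP gate, was at 395 and 386 CPM in Young and 415 and 415 CPM in Aged GMPs and at most 22.6 CPM elsewhere. It fell in MPP3 from 22 and 18.9 to 8.48 and 6.98 CPM (fitted log2 fold change -1.35 with SE 0.16, adjusted p = 3.67e-06) and in CLPs from 22.6 and 22 to 3.64 and 1.86 CPM (-2.99, SE 0.18, adjusted p = 2.71e-10). Igsf6, an immunoglobulin-like membrane protein of myeloid cells, fell in the same fractions, in MPP3 from 14.9 and 17.5 to 6.41 and 5.93 CPM and in CLPs from 9.92 and 9.01 to 1.28 and 1.07 CPM. The ages did not overlap for either gene in these 2 fractions.

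Ly6c2, which encodes a Ly6C antigen of monocytes and granulocyte precursors, was at 2160 and 2050 CPM in Young and 1720 and 2130 CPM in Aged GMPs. It fell in MPP3 from 121 and 125 to 30.4 and 34.6 CPM (-1.87, SE 0.18, adjusted p = 4.69e-07) and rose in CLPs from 210 and 209 to 481 and 368 CPM (1.04, SE 0.17, adjusted p = 1.74e-04). It has a near-identical neighbour, Ly6c1, with which reads may have been shared. Itgam, the CD11b integrin chain, rose in HSCs from 12 and 12.8 to 41.8 and 30.1 CPM (1.57, SE 0.17, adjusted p = 1.65e-06) and fell in MPP3 from 57.2 and 61.2 to 37 and 39.8 CPM (-0.58, adjusted p = 0.00817, lost without any 1 library, highest 0.0668). Fcer1g, the signalling chain shared by Fc receptors, fell in all 4 MPP fractions, in MPP4 from 19.6 and 25.7 to 8.97 and 10.3 CPM (-1.14, adjusted p = 3.85e-05). Its call in MPP1 was lost without Aged replicate 2 (0.0115). Trem1, an activating receptor, was called in no fraction and reached 28.1 and 25.4 CPM in Young GMPs. Igsf6 overlaps the protein-coding gene Mettl9 on the other strand. Itgam overlaps the protein-coding gene Gm49368 on the same strand, and reads may have been shared in both pairs.

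The inhibitors and other genes were all highest in GMPs. With age, 3 of the 5 rose and 0 fell in HSCs, where 3.74% of all genes tested rose and 1.66% fell. In MPP1 2 rose and 1 fell, against 4.71% and 2.09%, and in MPP2 1 rose and 0 fell, against 4.49% and 3.31%. In MPP3 0 rose and 0 fell, against 8.14% and 5.79%, and in MPP4 3 rose and 1 fell, against 10.3% and 6.27%. Nkg7, a membrane protein of cytotoxic granules, rose in HSCs from 6.49 and 8.51 to 14 and 18.7 CPM (log2 fold change 1.17, SE 0.15, adjusted p = 1.69e-05), in MPP1 and MPP4, and in GMPs from 594 and 560 to 836 and 884 CPM (0.52, SE 0.11, adjusted p = 0.00101). Serpinb1a, an inhibitor of elastase, proteinase 3 and cathepsin G, rose in HSCs from 40.7 and 39.8 to 65.8 and 66.9 CPM (0.77, adjusted p = 1.76e-04) and in MPP1 and MPP2. Aged libraries lay above Young ones for both genes in these fractions. Cst7, a cystatin that inhibits cathepsins, rose in MPP4 from 25.8 and 23.7 to 39.7 and 46 CPM, and Plac8, a small cysteine-rich protein, rose in MPP4 from 321 and 383 to 522 and 463 CPM and fell in MPP1. Anxa1, an annexin that limits neutrophil recruitment, rose in HSCs and fell in MPP4, MEPs and CLPs, in CLPs from 130 and 135 to 63.8 and 60.9 CPM (-1.07, SE 0.09, adjusted p = 5.86e-08). All 5 fell in MEPs, where 11.7% of all genes tested fell. The calls of Serpinb1a in MPP2 and of Anxa1 in HSCs and MPP4 were lost without 3 or more of the libraries compared (highest adjusted p 0.0511, 0.106 and 0.151). Those of Nkg7 and Serpinb1a in MPP1 were lost without Young replicate 1 (0.0108 and 0.0129), that of Nkg7 in GMPs without replicate 2 of either age (0.0126), that of Cst7 in MPP4 without Aged replicate 2 (0.012), and that of Plac8 in MPP4 without replicate 1 of either age (0.0113) and in MPP1 without Young replicate 2 or either Aged library (0.0551).

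The age difference of GMPs was also compared with that of MPP3. As a signed log2 value it was higher in GMPs than in MPP3 for 12 of the 36 genes and lower for 0. The shares over all genes tested were 9.32% and 10.3%. A higher signed value can come from a smaller fall in GMPs and need not be a larger change. The 12 were the late genes Lcn2, Cd177, Hp, Retnlg and Mmp9, the oxidase genes Cybb and Ncf1, the surface genes Fcgr3, Igsf6, Ly6c2 and Itgam, and Fcnb. Lcn2 differed by 2.68 (adjusted p = 1.46e-05), with levels that fell in MPP3 and were not called in GMPs, and Igsf6 by 1.48 (9.98e-07). None of the 5 early genes was called here by edgeR or DESeq2 (1 at an unadjusted p under 0.05, median log2 difference 0.48). The calls of Itgam, Retnlg, Cybb and Fcnb were lost without single libraries (highest adjusted p 0.0529, 0.0337, 0.0159 and 0.023), that of Retnlg without any of the 8, that of Itgam without any but Young GMP replicate 1, and those of Cybb and Fcnb without Young MPP3 replicate 2, Aged MPP3 replicate 1 or Aged GMP replicate 2.

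Counting over the 8 fractions, 33 of the 36 genes were called with age in at least 1, and 20 were called in both directions, 9 of them late genes. Of all 14154 genes tested 46.2% were called in at least 1 fraction and 9.5% in both directions. Lower calls in all of MPP2, MPP3 and CLPs were shared by 11 genes, of which 7 were late genes. In these fractions 3.31%, 5.79% and 4.73% of all genes tested were called lower, and the share called in all of them was not counted. Mmp25, Retnlg and Trem1 were called in none. By mean level, the late genes of Aged marrow were highest in HSCs (4 genes), GMPs (3) and CLPs (3). In Young marrow 7 had been highest in MPP3. Of these Aged genes, only Camp, Ngp and S100a9 in HSCs and Hp in GMPs stood above the second fraction in each library. The rest overlapped it, such as Lcn2 with means of 21.5 CPM in HSCs and 21.3 CPM in MPP2.

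Of other genes of neutrophil granules, a list of 24 with 19 tested, 4 rose and 0 fell in HSCs, against 3.74% and 1.66% of all genes tested, and 1 rose and 3 fell in MPP3, against 8.14% and 5.79%. Chil3, a chitinase-like secreted protein of granulocytes, rose in HSCs from 2.84 and 1.69 to 22.7 and 21.3 CPM (log2 fold change 3.35, adjusted p = 3.19e-08) and fell in MPP3 from 119 and 114 to 18 and 22.4 CPM (-2.48, adjusted p = 7.70e-08). Among tested genes outside the 37, Chil3 also had the 16 group means most like those of Ltf (Pearson r = 0.88). Chil1, C5ar1, Sh3pxd2a and B3gnt7 followed (0.871 to 0.848). These correlations are over group means of log2 CPM, which share libraries and depth. Outside the 37, those most like Elane were Cldn15, Sgms2, Papss2, Prom1 and Mefv (0.975 to 0.946), whose highest means were in GMPs. Among other oxidase genes, Rac2, Rac1 and Rap1a fell in MEPs, Rac1 and Rap1a also in GMPs, and BC017643 rose in CLPs from 151 and 150 to 197 and 192 CPM.

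Of 10 regulators of granulocyte genes, 2 rose and 2 fell in HSCs, where 3.74% of all genes tested rose and 1.66% fell, and 0 rose and 3 fell in MPP3, where 8.14% rose and 5.79% fell. Cebpe, the C/EBP factor of late granulocyte maturation, fell in MPP3 from 7.64 and 6.65 to 1.17 and 1.58 CPM (log2 fold change -2.33, adjusted p = 7.65e-05) and in CLPs from 4.17 and 4.55 to 1.21 and 0.429 CPM (-2.38, adjusted p = 3.19e-04). Cebpd rose in HSCs from 8.62 and 9.63 to 29.4 and 32.8 CPM (1.81, adjusted p = 2.64e-07), and Csf3r, the receptor of granulocyte colony-stimulating factor, from 70.1 and 58.4 to 127 and 152 CPM (1.17, adjusted p = 1.14e-07). Gfi1, a repressor needed for neutrophil formation, fell in HSCs from 28.1 and 35 to 14.3 and 17.8 CPM, and Myb fell there from 362 and 343 to 284 and 239 CPM. Irf8, a factor that favours monocytes over granulocytes, fell in MPP3 from 76.1 and 78.6 to 31.6 and 34.2 CPM and rose in CLPs from 3030 and 3110 to 4910 and 3960 CPM. The genes of PU.1 (Spi1) and of the remaining C/EBP factors Cebpa and Cebpb were not called with age in HSCs, MPP3, GMPs or CLPs.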

How the data were processed

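RNA was amplified with a SMARTer Ultra Low Input kit and, per the submitters' notes, aligned to mm10 with TopHat2 2.0.13 and Bowtie2 2.1.0 and counted with StringTie. The deposited table holds raw counts per gene, made by the authors, for all 32 libraries. Use of strand was not stated, and the reads carry no molecular identifiers. A second deposited table of normalized values and 8 tables of the authors' own Aged against Young comparisons (fold changes and p-values) were not used.

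Counts were tested with edgeR 4.0.16 in R 4.3.3: TMM factors (0.807 to 1.11), a filter on low counts by the edgeR default over 16 groups (14154 genes kept), 1 fit of 16 group means to 32 libraries (16 residual degrees of freedom), the quasi-likelihood F-test and Benjamini-Hochberg adjustment over all genes within each of 12 contrasts. A call is an adjusted p under 0.01. All 37 genes are named by rule, and of other genes only those on fixed lists or most like Elane or Ltf. A gene of the list of other oxidase genes is not reported here. The genes and lists were chosen with earlier results of these data known, so they are not independent evidence, and list counts are descriptions without a test. CPM uses library totals. Positions are from GENCODE M21, which gave GC content and length for 98.4% of symbols. The test was checked on simulated counts before use. Alternatives were DESeq2 1.42.0, its size factors, no filter, a fold limit, fits of the libraries compared alone, offsets for GC content and length, a replicate block and leaving out each library. Duplicates differed by more than counting noise in all 16 groups (chi-square per degree of freedom 4.47 to 18.5), so none was merged.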

Additional observations from a re-analysis of the deposited data

Results flagged for a closer look

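The age difference itself differed between fractions for some genes, by the interaction term of the edgeR fit with Benjamini-Hochberg adjustment over all genes tested. Values are log2 differences between age differences. GMP against MPP3 flagged 12 genes. Lcn2 differed by 2.68 (adjusted p = 1.46e-05), Cd177 by 3.01 (1.26e-04), Hp by 1.43 (2.36e-04) and Retnlg by 3.55 (0.0078). Cybb differed by 1.56 (0.00234), Ncf1 by 1.06 (1.78e-04), Fcnb by 2.56 (0.00292), Igsf6 by 1.48 (9.98e-07), Fcgr3 by 1.39 (2.44e-05), Ly6c2 by 1.69 (2.59e-05) and Itgam by 0.79 (0.00778). Mmp9 had 0 counts in both Young GMP libraries, so its fitted difference of 9.11 (1.48e-04) gives no size.

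HSC against MPP3, a contrast added after the values had been seen, flagged 17 genes. Among the late genes Camp differed by 5.53 (adjusted p = 6.34e-08), Ngp by 4.74 (6.34e-08), S100a9 by 4.72 (3.65e-06), Ltf by 4.62 (1.24e-05), Lcn2 by 4.57 (3.83e-07), S100a8 by 4.49 (2.04e-06), Cd177 by 4.16 (8.13e-05), Mmp9 by 3.59 (0.00327) and Hp by 3.15 (4.83e-05). Prtn3 differed by 1.37 (7.11e-04), Cybb by 4.60 (2.24e-05), Itgam by 2.15 (4.68e-06), Ly6c2 by 2.13 (9.32e-04), Lyz2 by 0.85 (9.87e-04), Lyz1 by 0.85 (0.00598) and Anxa1 by 0.70 (0.00197). Fcnb had 0 counts in both Young HSC libraries, so its fitted 9.33 (0.00204) gives no size. Leaving out 1 library lost the calls of Mmp9, Lyz1, Anxa1, Fcnb and Ly6c2, with highest adjusted p 0.0304, 0.0355, 0.0146, 0.0232 and 0.0319. For Mmp9 and Lyz1 this held without 6 of the 8 libraries, for Anxa1 without Young HSC replicate 1, either Young MPP3 library or Aged MPP3 replicate 1, for Fcnb without Young HSC replicate 2 or Aged HSC replicate 1, and for Ly6c2 without Aged HSC replicate 2.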

How the results depend on the processing

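Of the 12 counts of genes called, those of MPP3 (20) and of the 4 comparisons between fractions stayed within 1.5 times under every alternative run. A fit of only the libraries compared changed the counts of HSCs from 16 to 9, MPP1 from 7 to 11, MPP2 from 15 to 26, GMPs from 9 to 3, MEPs from 19 to 8 and CLPs from 25 to 9. A limit of 1 on the absolute log2 fold change gave 0 in MPP1, 9 in MPP2, 4 in MPP4 (from 11) and 5 in GMPs. DESeq2 gave 15 in MPP1. Leaving out each library gave 3 to 6 in MPP1, 5 to 7 in MPP2, 7 to 8 in MPP4, 4 to 8 in GMPs, 11 to 14 in HSCs, 17 to 18 in MPP3, 15 to 17 in MEPs and 20 to 23 in CLPs; the lone library left in a group is then assumed to vary like the other groups. None of the 213 called gene values changed sign when a library was left out, whereas 57 of the 219 values not called did, among them S100a9 in MEPs, which was higher in Aged (0.97) and turned lower without Aged replicate 1, the other Aged library having 0 counts.

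For the log2 ratio of summed CPM, Aged over Young, TMM-scaled CPM moved the early sum of MPP2 from -0.319 to -0.268, of MPP4 from 0.0485 to 0.135 and of GMPs from 0.0537 to -0.000385, a change of sign at no difference, and the late sum of MPP4 from 0.16 to 0.246. Without S100a8 and S100a9 the late sum moved from 1.3 to 1.14 in HSCs, from -1.07 to -0.984 in MPP2, from -1.72 to -1.54 in MPP3 and from -0.261 to -0.0404 in GMPs. The late sum of MEPs (-0.0886) ranged from -2.94 to 0.808 when 1 library was left out, and was -2.94 without Aged MEP replicate 1. These late sums include Padi4.

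Offsets for GC content and gene length turned 2 values, neither called in the main fit: between Young MPP3 and Young GMPs, Lyz2 went from 0.28 to -0.2474 and Lyz1 from 0.15 to -0.4166, and with the replicate block as well to -0.3194 and -0.4489. Replicate numbers did not pair the libraries: deviations of same-numbered Young and Aged libraries correlated between -0.06 and 0.07. With the replicate block 411 of 432 gene values kept their direction and side of the threshold, 14 lost and 7 gained a call. The causes of these changes were not tested. Depth limits genes near 3 counts per library, as in MEPs, where a difference may go undetected.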
